A study of Mus musculus with 2 samples.

Results

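The major urinary proteins (Mup) are small secreted lipocalins, proteins whose barrel-shaped fold holds a hydrophobic ligand. They were followed here in skin of newborn mice that lack Sdr9c7, a short-chain dehydrogenase that acts on the acylceramides of the epidermal barrier. The members were the non-control probes whose gene name in the scanner files begins with Mup and a digit. This rule found 12 probes for 10 genes, out of 39417 probes on the array. The rule itself reads names, but the family was selected on its log2 difference between the same 2 arrays, so the values below are a description and carry no test.

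The groups were Sdr9c7-/- (knockout) skin and wild type skin, both on the C57BL/6J background, both at postnatal day 0 and both from the back. Each group was 1 array, made from equal amounts of total RNA of 5 animals, so no difference has a replicate check, and the array cannot be told apart from the genotype. The sources used here do not say which part of Sdr9c7 was removed. The labels call the tissue skin, while the design text calls it epidermis.

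Major urinary proteins carry small volatile pheromones and release them slowly from urine marks. Most are made in the liver under the control of growth hormone and androgens, and some are made in lacrimal, salivary and other glands. Their genes lie side by side on mouse chromosome 4 as many close copies. The RefSeq genes of GRCm38.p6 include 22 Mup genes there and 0 other protein-coding genes between them. The same table has 24 entries named as Mup pseudogenes.

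The probes are 60 bases long, and their sequences were compared with one another. They were not aligned to the transcripts of other copies, so how far a probe tells copies apart was not tested. All coordinates of probes are on mm9, chromosome 4, as the scanner files give them, and no annotation of that build was used, so exons were not assigned. The position of a probe within its transcript (its offset) is also from the scanner files. All 12 probes matched their gene in the RefSeq table by accession. For 7 probes the transcripts listed in the scanner files belong to 1 Mup gene, and for 5 they belong to several. The Mup1 probe lists Mup1, Mup2 and Mup19, the Mup19 probe lists Mup1, Mup17 and Mup19, and the Mup17 probe lists Mup11, Mup16 and Mup17. The Mup2 probe lists Mup1 and Mup2, and the Mup6 probe lists Mup4 and Mup6. That field holds at most 4 transcripts, so it may leave others out.

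The next sequences are those of the Mup3 probe (chr4:61745794-61745853, minus strand) and the Mup6 probe (chr4:60018835-60018894, plus strand), shown because they cover the same stretch of 2 paralogs. They match at 51 of 60 bases. Capitals mark the 9 differing bases, which, counted from the 5′ end with the Mup3 base first, are C2T, A9T, C12T, A36G, C49T, A51C, T57A, G58A and T59C.
Mup3: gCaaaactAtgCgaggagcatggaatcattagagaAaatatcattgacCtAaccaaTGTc
Mup6: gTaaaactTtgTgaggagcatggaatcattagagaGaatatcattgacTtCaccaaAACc

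A further set shows 30 bases each of the later Mup4 probe, the later Mup20 probe and the Mup19 probe, which lie in the same region of their transcripts. Capitals mark bases that differ from the Mup4 stretch, 3 in Mup20 and 4 in Mup19. The Mup4 and Mup20 probes share an unbroken run of 24 bases. The stretches were cut around this run, so the whole probes are less alike than the bases shown. Over 52 overlapping bases, the Mup4 probe matches the Mup20 probe at 45 and the Mup19 probe at 37. The Mup19 and Mup20 probes match at 43 of 60 bases.
Mup4, offset 669: gacaagttctgtgatctgctttccatcctg
Mup20, offset 688: AaGaagttctgtgatctgctttccatcGtg
Mup19, offset 684: TaTaaAttctgtgatctgcAttccatcctg

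The probes of Mup2 and Mup21, near the ends of their transcripts, had a run of 11 bases in common and diverged after it. It is given in capitals within 30 bases of each.
Mup2: GAGGCCCTTCCcaaagtattaatgttgtgc
Mup21: GAGGCCCTTCCaaatgcattattgtgcccc

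Finally, these 4 probes from the earlier parts of the transcripts are given whole. The Mup5 probe and the earlier Mup4 probe overlap by 25 bases, of which 22 match. The earlier Mup20 probe and the Mup1 probe had no overlap of 20 or more bases at 70% identity with any other member.
Mup5, offset 58: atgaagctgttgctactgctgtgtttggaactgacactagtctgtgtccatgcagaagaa
Mup4, offset 95: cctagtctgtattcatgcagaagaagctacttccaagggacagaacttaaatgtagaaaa
Mup20, offset 314: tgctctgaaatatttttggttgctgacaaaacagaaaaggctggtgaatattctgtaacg
Mup1, offset 459: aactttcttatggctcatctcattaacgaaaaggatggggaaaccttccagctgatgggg

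The coordinates show the same closeness of the copies. The probes named for Mup1, Mup2 and Mup19 were all placed within 1624 bases of each other, from chr4:61439496-61439555 (Mup19) over chr4:61440295-61440354 (Mup2) to chr4:61441060-61441119 (Mup1). By contrast, the pair of probes for Mup20 was placed 103448 bases apart, at chr4:61610163-61610222 and chr4:61713671-61713730. The other probes were at chr4:59969824-59969883 and chr4:59973383-59973442 for Mup4, at chr4:61253019-61253078 for Mup17, at chr4:61496097-61496156 for Mup5 and at chr4:61808866-61808925 for Mup21.

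Signals are given relative to the 75th percentile of all probes on the same array, so that 1 equals it. A probe counts as measured where the scanner software flagged it as well above background on both arrays. Of the probes on the array, 76.8% were well above background on the knockout array and 74.9% on the wild type array, and 29090 were measured. No spot was saturated. Sdr9c7 itself, the check of the labels, read 0.0479 in the knockout and 0.324 in wild type, a 6.78-fold lower signal. Epidermal keratinocyte markers, which define the labelled tissue, were bright on both arrays, with Krt1 at 114 in the knockout and 112 in wild type.

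While 55.8% of all measured probes lay below 0, all 10 measured Mup probes were lower in the knockout. Their median log2 difference (knockout minus wild type) was -0.97, which is 1.95-fold lower, against -0.03 over all measured probes. Of these 10, 9 were at least 1.5-fold lower and 1 was at least 2-fold lower. Among all measured probes 6.04% were at least 1.5-fold lower and 1.43% at least 2-fold lower. No Mup probe was at least 2-fold higher, against 0.512% of all measured probes. Since the family was chosen on this contrast, nothing is read from these shares. Among the 11412 probes of the same brightness as the 9 brighter Mup probes, 3.51% were at least 1.5-fold lower and 0.894% at least 2-fold lower. The remaining 2 probes, for Mup6 and the earlier part of Mup4, were not well above background on either array.

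The probes of the near-identical central group of genes, Mup1, Mup2, Mup17 and Mup19, are the ones most open to shared signal. Mup19 read 4.03 in the knockout and 7.87 in wild type (1.95-fold lower). The Mup1 probe read 2.29 in the knockout and 4.47 in wild type (1.95-fold lower). Mup17 read 1.78 in the knockout and 3.49 in wild type (1.97-fold lower). These 3 differences are the same to within 0.02 on the log2 scale. Their transcript lists overlap, so they cannot be counted as separate genes that moved. Mup2 stood a little apart, at 0.889 in the knockout and 1.53 in wild type (1.72-fold lower), although its probe shares transcripts with that of Mup1. The array held no probe named for 12 of the 22 Mup genes of the table, and some of their transcripts are among those the central probes list.

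Mup20, known as darcin, is a male pheromone protein that draws females to a scent mark and lets them remember its place. Its earlier probe read 0.791 in the knockout and 1.54 in wild type (1.95-fold lower), and its later probe read 1.59 in the knockout and 2.94 in wild type (1.85-fold lower). Both probes list Mup20 alone. Their log2 differences of -0.96 and -0.89 were closer to each other than the pooled SD of 0.25 between probes of 1 gene. That SD was taken over 5161 other genes with several measured probes. Such closeness was not particular to Mup20, since 8 brighter Mup probes of several genes had an SD of 0.07. The later Mup20 probe shares a run of 24 bases with the later Mup4 probe. Whether the Mup20 probes read Mup20 or a paralog was not tested.

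Mup4 and Mup5 are known from lacrimal and salivary glands. The Mup5 probe, which lists Mup5 alone, read 0.210 in the knockout and 0.414 in wild type (1.97-fold lower). The later Mup4 probe read 1.40 in the knockout and 2.74 in wild type (1.96-fold lower). However, the earlier Mup4 probe had a processed intensity of 1.76 in the knockout and 1.97 in wild type, not well above background on either array. The later probe is the one that shares 24 bases with Mup20, and the 2 probes for Mup4 thus disagreed on whether a signal was present. The Mup6 probe, which lists both Mup4 and Mup6, was also not well above background on either array. Whether the later Mup4 probe read Mup4 or a paralog was not tested. The Mup4 value is therefore given for the probe and not for the gene.

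Among the 10 measured members, Mup3 had the largest difference. Its probe read 0.185 in the knockout and 0.466 in wild type, 2.53-fold lower, and it was the member past 2-fold. The Mup6 probe had a processed intensity of 5.50 in the knockout and 4.17 in wild type and was not well above background on either array. The Mup6 probe differs from the Mup3 probe at 9 bases, and the Mup3 probe was clearly above background on the same arrays. What these bases do to the signal was not tested. Mup3 lay in rows of the slide where dim spots scattered at least as much as in 91.5% of rows. That scatter was 0.411 on the log2 scale, against 0.344 for the median row. It was taken over the dimmest measured spots only, whereas Mup3 was among the 9 brighter Mup probes. The later Mup4 probe and the Mup17 probe lay in rows ranked at 84.2% and 81.6%. The 158 measured spots around the Mup3 spot had a median difference of -0.07. The part of that scatter in the Mup3 value was not tested.

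Mup21, the last gene of the cluster and one of its peripheral, more divergent copies, was dim. It read 0.0175 in the knockout and 0.0215 in wild type, 1.22-fold lower. Its log2 difference of -0.29 was about as large as its error of 0.23, combined from the errors that the scanner software gives each array's value. For each of the other measured members that combined error was 0.20. It is not a spread measured between spots or animals. Of the measured members, the Mup21 probe had the value closest to the median of all probes.

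**Figure D1:**
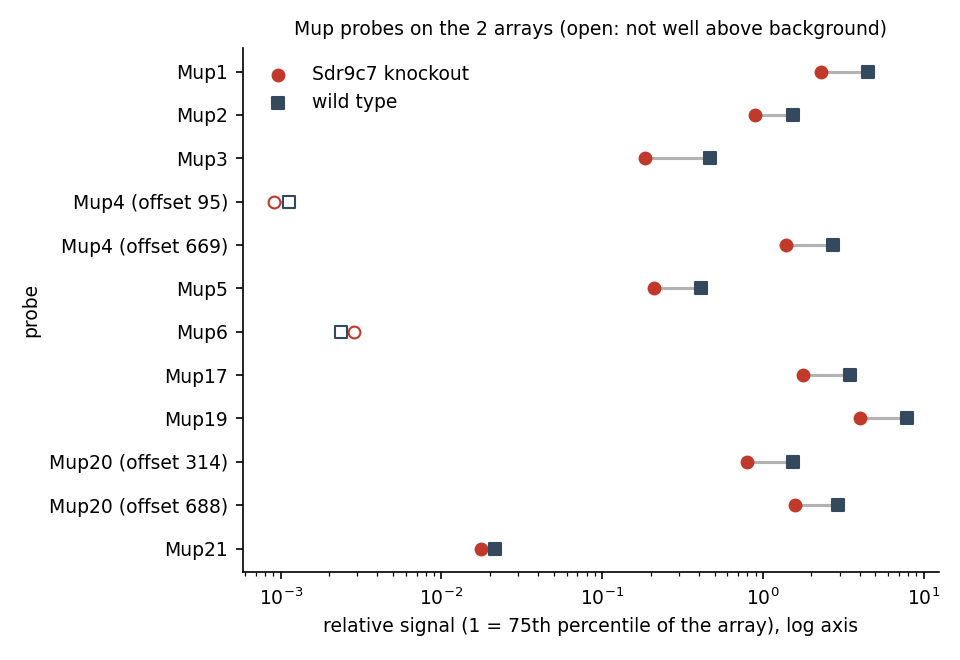
Relative signal of each of the 12 Mup probes (log axis, 1 is the 75th percentile of the array) in Sdr9c7 knockout skin (circles) and wild type skin (squares), 1 array each; open symbols were not well above background. In 9 probes the knockout lies left of the wild type, by 1.72-fold (Mup2) to 2.53-fold (Mup3), Mup21 shows a 1.22-fold gap, and Mup6 and the earlier Mup4 probe lie at background.

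Leaving out Mup3, the lowest, and the dim Mup21, the log2 differences of 8 probes ran from -0.98 (Mup5) to -0.78 (Mup2). Their SD between probes was 0.07, and it was 0.15 over the 9 brighter probes with Mup3 kept. Some of these probes list the same transcripts, so their values are not independent. For comparison, 320 probes of the array were printed at 8 or more positions, and the SD of the difference between spots of 1 such probe had a median of 0.06, or 0.12 among the dimmest of them. These spreads cover spot and probe error only, not animals or dissections. Of the 9 brighter probes, 7 lay between -0.98 and -0.89, just short of 2-fold, so that a count at 2-fold holds Mup3 alone while Mup5, at 1.97-fold, falls just outside. Binding strength differs between probes, so the level of one gene is not read against that of another.

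**Figure D2:**
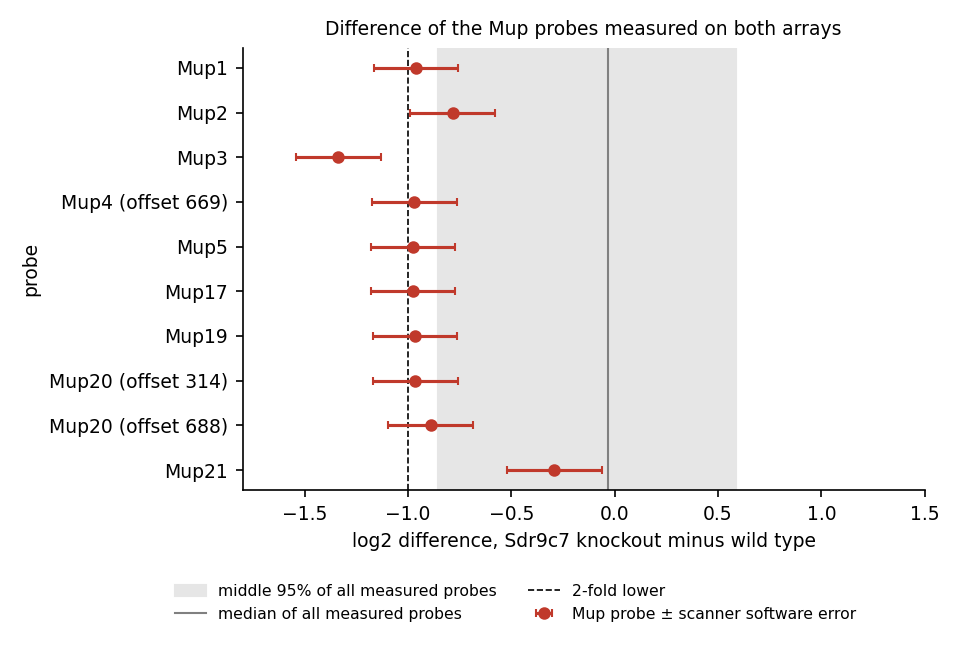
Log2 difference (Sdr9c7 knockout minus wild type) of the 10 Mup probes measured on both arrays. Bars combine the errors that the scanner software gives the values of the 2 arrays and are not a measured spread. The grey band holds the middle 95% of all 29090 measured probes and the dashed line marks 2-fold lower. Most points sit between -0.98 and -0.89, Mup3 lies lowest at -1.34 and Mup21 highest at -0.29.

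The array also carried 8 probes whose descriptions name a major urinary protein or its pseudogene but whose gene names fall outside the rule. All 6 of these that were measured were lower in the knockout, with log2 differences from -1.09 to -0.48 and a median of -0.91. Over all measured probes, 55.8% were below 0. Of the 6, 2 were at least 2-fold lower, against 1.43% of all measured probes. These 2 have only a transcript name and were 2.13-fold and 2.01-fold lower. The probe for Mup18, listed in the files under an older name, read 3.18 in the knockout and 5.80 in wild type (1.82-fold lower). One of 2 probes for the pseudogene Mup-ps12 read 0.178 in the knockout and 0.347 in wild type (1.94-fold lower), and the Mup-ps16 probe read 0.888 in the knockout and 1.42 in wild type (1.59-fold lower). The remaining 2 probes were well above background in wild type only. Both were dim there, at 0.00607 for Mup-ps12 and 0.0174 for the other, which has only a transcript name. Against the lowest signal well above background on the knockout array, 0.00435, these are 1.40-fold and 4.0-fold. That limit was not measured for these spots, so the folds are rough. These probes belong to the same close copies and add no separate evidence.

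Genes that flank the cluster read closer to level. The 3 nearest protein-coding genes on each side were all measured. On the Mup4 side, the thymic transporter Slc46a2 read 8.62 in the knockout and 9.03 in wild type, and Snx30 and Inip had log2 differences of 0.02 and -0.07. On the Mup21 side, Slc31a2, a copper transporter relative, was at -0.03 and Fkbp15 at 0.06. Zfp37, a dim zinc finger gene, was the lowest at -0.47, with 0.0437 in the knockout and 0.0607 in wild type.

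The start regions of the genes were read from a RefSeq promoter table (GRCm38.p6), which held 7 of the 10 genes: Mup2, Mup3, Mup4, Mup6, Mup17, Mup19 and Mup21. The promoters of Mup2, Mup17 and Mup19 were 99.0% to 99.3% identical over aligned bases. Each of these matched those of Mup3, Mup4, Mup6 and Mup21 at 86.5% to 93.2%. All 7 held the letters TATATAA, searched on both strands within 250 bases before and 50 bases after the start and picked after the sequences were seen, against 3.24% of all 32851 promoters in the table. TATAAA was in 2 of the 7 (13.6% of all), CCAAT in 1 (37.4%) and TTCNNNGAA, the letters of a STAT site, in 0 (8.30%). In Mup4 and Mup6 the TATAAA match overlaps the TATATAA match. The 150 bases before the annotated start are shown for Mup19 (chr4:61782225-61782374, minus strand), for Mup3 (chr4:62087318-62087467, minus strand), the member past 2-fold, for the dim Mup21 (chr4:62150842-62150991, minus strand) and for Mup6 (chr4:60003331-60003480, plus strand), which was at background. Capitals mark TATATAA.
Mup19: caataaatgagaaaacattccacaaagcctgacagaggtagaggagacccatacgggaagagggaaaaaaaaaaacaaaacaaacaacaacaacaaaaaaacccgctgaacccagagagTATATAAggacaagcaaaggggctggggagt
Mup3: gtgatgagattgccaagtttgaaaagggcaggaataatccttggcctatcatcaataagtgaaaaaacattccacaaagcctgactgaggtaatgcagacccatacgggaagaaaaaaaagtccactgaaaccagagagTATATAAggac
Mup21: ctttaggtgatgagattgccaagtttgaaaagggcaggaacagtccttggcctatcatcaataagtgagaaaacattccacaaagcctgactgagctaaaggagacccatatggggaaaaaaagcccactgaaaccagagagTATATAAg
Mup6: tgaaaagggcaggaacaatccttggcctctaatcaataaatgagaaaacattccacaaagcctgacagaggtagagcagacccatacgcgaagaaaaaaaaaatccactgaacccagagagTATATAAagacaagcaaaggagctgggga

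The 4 stretches differ most in the adenine-rich tract before TATATAA. The longest run of A anywhere in the promoter was 11 bases in Mup19, 10 in Mup6, 8 in Mup3 and 7 in Mup21. In this table TATATAA began 31 bases before the start in Mup19 and 8 bases before it in Mup21, which follows where each start was annotated.

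Tissues that could carry Mup transcripts were followed through lists of marker genes, whose values stand beside those of the family. Over 22714 genes with a measured probe, the median log2 difference was -0.04, 56.9% of genes lay below 0, 1.35% were at least 2-fold lower and 0.528% at least 2-fold higher. In bulk skin RNA, fewer cells of a type and less RNA per cell cannot be told apart. Summed signals of a list serve only to set one array against the other, since strongly binding probes weigh most in them. The part of any of these tissues in the Mup values was not tested.

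Hepatocyte markers were mixed. Of 16, 9 were measured, with a median of -0.10, 5 below 0 and 4 above, and their summed relative signal was 4.80 in the knockout and 9.28 in wild type. Haptoglobin (Hp), which is also made in fat, gave nearly all of that signal, at 4.36 in the knockout and 8.73 in wild type. Albumin (Alb), the defining product of hepatocytes, was dim at 0.0657 in the knockout and 0.0617 in wild type. Cyp2e1 was 3.82-fold lower, at 0.195 in wild type and a dim 0.0512 in the knockout. Ahsg, fetuin, was 3.91-fold higher but dim, at 0.0642 in the knockout and 0.0164 in wild type. Not measured were the plasma protein genes Apoa1, Apoh, Ttr, Fga, Fgb, Fgg and Ambp.

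White adipocyte markers were lower together, with 10 of 10 measured and below 0, a median of -0.71 and 2 at least 2-fold lower. Their summed relative signal was 56.7 in the knockout and 85.9 in wild type. Adipsin (Cfd) was 3.39-fold lower and resistin (Retn) 2.25-fold lower, while Fabp4 read 35.5 in the knockout and 44.9 in wild type and Pparg was at -0.02. Adiponectin (Adipoq) read 6.53 in the knockout and 12.1 in wild type (1.85-fold lower). No marker of this list was at background, but Lep was dim, at 0.0138 in the knockout and 0.0189 in wild type.

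Skeletal muscle markers were lower as well, with 9 of 10 below 0, a median of -1.01 and 5 at least 2-fold lower. Their summed signal was 107 in the knockout and 193 in wild type. Parvalbumin (Pvalb) was 4.78-fold lower and Actn3 2.86-fold lower, whereas Myh2 was at 0.18. The troponin Tnni2 read 51.8 in the knockout and 86.7 in wild type. With 1 array per genotype, no link between these values and the Mup values can be measured, and none was tested.

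The remaining tissues gave smaller or mixed values. Epidermal keratinocyte markers had a median of 0.04 over 9 measured genes, from Lor at -0.15 to Ivl at 0.26, with a summed signal of 369 in the knockout and 375 in wild type. Brown adipocyte markers had a median of 0.23 over 7, and a summed signal of 4.84 in the knockout and 7.03 in wild type. Cox8b, at 1.94 in the knockout and 4.19 in wild type (2.16-fold lower), made up the gap in that sum. Ppargc1a was 2.15-fold lower but dim, at 0.0437 in the knockout and 0.0940 in wild type. Prdm16 at 0.72 and Ucp1 at 0.39 were higher and also dim, with Ucp1 at 0.0457 in the knockout and 0.0349 in wild type. Mammary epithelium markers were 5 of 8 measured, with a median of -0.12 and Elf5 2.18-fold lower, summing to 0.725 in the knockout and 0.843 in wild type, while the milk protein genes Csn2, Csn3 and Wap were not measured. Of the lacrimal and salivary gland markers, only 1 of 10 was measured, the water channel Aqp5, at 0.0339 in the knockout and 0.0322 in wild type. Flg and Muc19, a keratinocyte and a gland marker, were not analysed here.

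**Figure D3:**
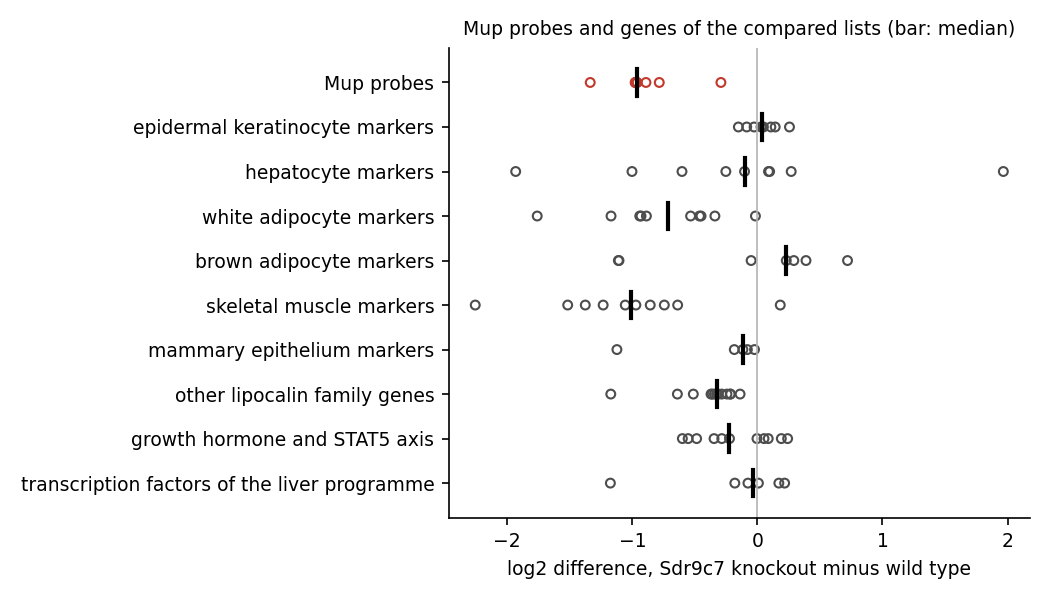
Log2 difference (Sdr9c7 knockout minus wild type) of the measured Mup probes and of each measured gene in the lists with at least 5 measured genes; bars are medians. Medians are -0.97 for the Mup probes, -1.01 for skeletal muscle and -0.71 for white adipocyte markers, and keratinocyte markers lie near 0.

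Other lipocalins were lower by less. All 13 measured genes of the 22 listed were below 0, with a median of -0.33, and Lcn16 was not analysed here. The acute phase gene Orm3 was the lowest at -1.17 and the 1 at least 2-fold lower, but it was dim at 0.0115 in the knockout and 0.0259 in wild type. Lcn10 followed at -0.64. Lcn12, at -0.14, and C8g, at -0.22, differed least. Rbp4, the plasma carrier of retinol, read 5.27 in the knockout and 6.54 in wild type (1.24-fold lower), and Lcn2, an iron-sequestering alarmin, read 0.0996 in the knockout and 0.129 in wild type (1.29-fold lower).

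Known regulators of Mup genes showed no gene past 2-fold in the growth hormone and STAT5 list. All 11 were measured, with a median of -0.22, 7 below 0 and 4 above. The growth hormone receptor Ghr read 1.70 in the knockout and 2.38 in wild type (1.40-fold lower), and Stat5a and Stat5b, the transcription factors it activates, were at 0.24 and 0.19. The STAT5 target Socs2 was at -0.55 and Igfals, dim on both arrays, at -0.60. Cish, of the same list and brighter, read 3.10 in the knockout and in wild type, a log2 difference of -0.003. Of 12 transcription factors of the liver programme, 6 were measured, with a median of -0.03. Zhx2, known in mice as a repressor of liver genes and a modifier of Mup expression, was 2.26-fold lower but dim, at 0.0236 in the knockout and 0.0533 in wild type. Ppara was at -0.18, Cebpb at 0.22 and Nr3c1, the glucocorticoid receptor, at 0.17, and Hnf4a and Foxa1 to Foxa3 were not measured.

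Genes of pheromone detection had 2 of 7 measured, the G protein subunits Gnai2 at -0.07 and Gnao1 at 0.18. The vomeronasal receptors Vmn2r59, Vmn2r69 and Vmn2r81 had probes that were not well above background on both arrays, and Trpc2 and Vmn2r74 were not analysed here.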

How the data were processed

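Total RNA of newborn dorsal skin was hybridised to 1-colour (Cy3) Agilent arrays, 1 per genotype on a shared slide, with 200 ng of RNA labelled per the labels' protocols. Per the file headers, the deposited scanner files give spot intensity that Agilent Feature Extraction 11.5.1.1 corrected for background and spatial trends, plus raw intensity, error and flags. The deposited series matrix gives a ratio for every spot. Its values matched the processed intensity over a single constant for each array (2080 for the knockout, 1906 for the wild type), linear and without centring, with medians of 0.0840 for the knockout and 0.0855 for the wild type.

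Intensities were taken to log2, control spots and 192 outlier spots left out, spots of a probe averaged, and the 75th percentile over all probes subtracted (Python 3.11.15, pandas 2.3.3). Genes of the lists took the mean of their measured probes. The calculation was tested on simulated data. Alternatives used limma 3.58.1 in R 4.3.3. No p-value is given, because there was 1 array per genotype, and their number limits the precision.

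The members, lists and thresholds were chosen with earlier results of these data known. The named genes are every member, Sdr9c7, the 3 nearest genes on each side of the cluster and, from each list, up to 2 at each end and the gene with the highest signal of a tissue list. Adipoq, Lep, Alb, Rbp4, Lcn2, Ghr, Cish, Nr3c1, Stat5b and Mup18 were named outside this rule, after their values were seen. So were the Mup pseudogenes and the genes listed as not measured. With 2 arrays no likeness of pattern between genes can be measured.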

Additional observations from a re-analysis of the deposited data

How the results depend on the processing

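All 10 measured Mup probes stayed below 0 under every alternative run. The median log2 difference ran from -0.97 to -0.88, the latter after normexp background correction, and 9 probes were at least 1.5-fold lower under each of these alternatives that kept all members. The count at 2-fold depended on small shifts: it was 2 after normexp correction (Mup3 and Mup17) and 2 after subtracting the median difference of nearby spots (Mup3 and Mup5). It was 0 without Mup3, an alternative chosen after seeing the data, as was the 1.5-fold threshold. No probe was at least 2-fold higher in any of them. The scalings placed the median of all probes between -0.06 and 0.01. Without a filter on dim probes, 12 probes entered, with Mup6 at 0.26 and the earlier Mup4 probe at -0.30. Leaving out lower limits changed nothing for the members, since none was above background on 1 array only. The value of Mup21 moved most in proportion, to -0.19 after normexp correction. No paired analysis was possible because each genotype had 1 array. Dim probes carry little signal over background, and the arrays cannot show differences between animals.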
